A study of Mus musculus with 5 samples.

Results

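Of the 5 single-cell libraries in this series, the E2+P4+PBDE library was set against the E2+PBDE library, 1 library each, to see what differed when progesterone (P4) was given together with 17β-estradiol (E2) to mice that also ate polybrominated diphenyl ethers (PBDEs). These libraries held 5884 of the 14317 barcodes that passed the quality thresholds of the series. Within each library, barcodes were placed in 4 gates by UMIs per 10000 UMIs of the barcode, where a UMI stands for 1 captured transcript. Hormone-sensing barcodes had Prlr and Cited1 summing to at least 10 with Csn3 and Spp1 below 5, alveolar barcodes had Csn3 and Spp1 at 10 or more with Prlr and Cited1 below 5, basal barcodes had Krt14 and Krt17 at 8 or more, and fibroblasts had Col1a1, Col1a2, Col3a1 and Dcn at 50 or more with Epcam and Krt18 below 5. The 12 gate genes are therefore no result.

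All mice were ovariectomized BALB/cj females that received treatment for 1 week from 20 weeks after surgery and were 30 weeks old at sampling. In E2+PBDE the mice received E2 (1 µg per animal per day) and food that held, per kg, 7.1 mg of the congener BDE-47, 0.9 mg of BDE-153 and 0.4 mg of BDE-100. In E2+P4+PBDE they received the same E2 and food and, in addition, P4 (0.1 mg per animal per day). Both hormones were injected into the peritoneum daily, and glands were taken a day after the last dose. The E2 and E2+P4 libraries gave the same addition of P4 without PBDEs, and Vehicle had neither hormone; these 3 groups ate control food with the solvent DMSO. The whole mammary gland (number 4) was dissociated after the lymph node was taken out, without sorting, and about 4000 cells were loaded per library. How many animals each library held was not given in the sources used here.

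Progesterone acts on the mammary gland through its receptor in hormone-sensing luminal cells, whose gene Pgr is itself induced by estrogen. These cells then signal to their neighbours with secreted factors, of which RANKL (Tnfsf11) and Wnt4 are the best known, and alveolar luminal cells and basal cells respond although most of them lack the receptor. Estrogen signalling passes to other cells mainly through amphiregulin (Areg), a ligand of the EGF receptor.

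With 1 library per group, nothing here could be set against the spread between animals, and every interval below is an exact or Newcombe 95% interval that covers counting error only. E2+PBDE had 42012988 UMIs and a median of 8116 per barcode, and E2+P4+PBDE had 19982067 and 5348, the lowest total of the 5. The libraries had 9 barcode sequences in common. The library numbers in the names of the deposited files run consecutively for the pair with PBDEs and lie apart from those of the other 3; what they mark is not stated, so PBDEs and a batch that follows these numbers cannot be told apart, whereas the comparison with and without P4 lies within this pair. A level below is in CPM, the UMIs of a gene summed over the barcodes of a gate per 1000000 UMIs of those barcodes.

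The libraries differed most in their shares of fibroblasts and of hormone-sensing barcodes. Hormone-sensing barcodes made up 32.1% of E2+P4+PBDE (758 of 2358, interval 30.3 to 34.1) and 20.2% of E2+PBDE (714 of 3526, interval 18.9 to 21.6). The difference was 11.9 percentage points (9.60 to 14.2). Fibroblasts made up 29.3% and 52.2%, a difference of -22.9 points (-25.3 to -20.4). Alveolar barcodes, in contrast, had nearly the same share in both libraries, 4.92% (116 barcodes) and 5.56% (196 barcodes), with a difference of -0.639 points (-1.78 to 0.545). Basal barcodes were few, 40 and 63, with a difference of -0.0904 points (-0.756 to 0.628).

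The shares of a library sum to a fixed total, so a smaller share of fibroblasts leaves a larger share for the others. Among the barcodes of the 3 epithelial gates alone, hormone-sensing barcodes made up 83.2% in E2+P4+PBDE and 73.8% in E2+PBDE, and alveolar barcodes 12.7% and 20.2%. There were 6.53 hormone-sensing barcodes per alveolar barcode with P4 and 3.64 without it. Summed over all barcodes of a library, the 8 markers of the hormone-sensing lineage (L-Hor) nevertheless stood at 3282 and 3240.2 CPM, and the 8 markers of the alveolar lineage (L-Alv) at 2105 and 2084 CPM, while the fibroblast markers were at 1529 and 2472 CPM. Barcodes in no gate made up 25.4% and 15.3%. Barcodes high for both luminal gene pairs, which belong to neither luminal gate, made up 6.62% and 5.10%, with medians of 14498 and 26149 UMIs against 6192 and 11142 in hormone-sensing barcodes; how many were doublets was not tested. Few barcodes lay close to the threshold of the hormone-sensing gate, 20 and 25 between 8 and 10, and 35 and 25 between 10 and 12.

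In the libraries without PBDEs, which share no library with this pair, the order was another. Alveolar barcodes made up 18.3% of E2+P4 and 6.24% of E2, a difference of 12.1 points (10.4 to 13.8), and hormone-sensing barcodes 26.3% and 28.4%, a difference of -2.11 (-4.55 to 0.305). The fibroblast share was lower with P4 in both pairs, with a difference of -17.9 points without PBDEs. With 1 library in each group, the difference between the pairs was not tested.

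**Figure D1:**
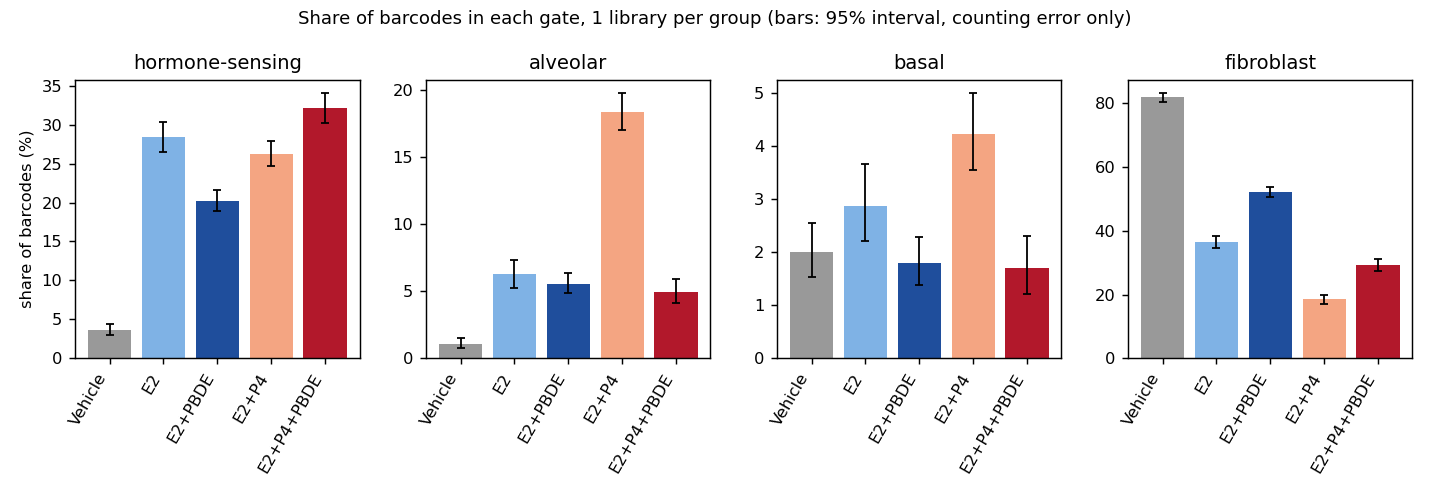
Share of the barcodes of each library (percent, vertical axis) in the hormone-sensing, alveolar, basal and fibroblast gates, with 1 bar per library and exact 95% intervals for counting error. E2+P4+PBDE (dark red) lies above E2+PBDE (dark blue) for hormone-sensing barcodes, 32.1% against 20.2%, below it for fibroblasts and level with it for alveolar barcodes, where E2+P4 stands alone at 18.3%.

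In each gate, the markers of its own lineage that took no part in the gating were highest there. The L-Hor markers summed to 5444 and 7059.8 CPM in the hormone-sensing barcodes of E2+P4+PBDE and E2+PBDE, against 2450.2 and 2642 in alveolar barcodes and 332 and 226 in fibroblasts. The L-Alv markers summed to 6169 and 6837 in alveolar barcodes and to 1131 and 914 in hormone-sensing barcodes. The basal markers summed to 8467 and 9399 in basal barcodes, and the fibroblast markers to 6115 and 6555 in fibroblasts. Areg, a transcript of hormone-sensing cells, also had a UMI in 11.9% and 10.0% of fibroblasts after each barcode was thinned to 3000 UMIs (16.2% and 21.4% before thinning). RNA free in the suspension can give such a level, which serves as the background for Areg alone. The shares of Wnt4, Pcp4, Dmbt1, Lalba and Rpap3 are given below beside their own shares in fibroblasts.

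In hormone-sensing barcodes, most genes differed by less than 1.5-fold between the libraries, and so did most of the known targets of progesterone. Of the 8203 genes that reached 100 UMIs in both libraries together, 304 (3.71%) were at least 1.5-fold higher in E2+P4+PBDE and 171 (2.08%) at least 1.5-fold lower, with a median log2 ratio of -0.01. Of 20 progesterone response genes, 14 had that many UMIs, 0 were 1.5-fold higher and 1, Zbtb16, was 1.5-fold lower, with a median log2 ratio of -0.03. In the libraries without PBDEs, 2 of 14, Wnt4 and Id2, were 1.5-fold higher in E2+P4 than in E2 (background 2.77%). Because glands were taken a day after the last dose, responses that had faded by then were not measured.

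Wnt4, the secreted factor through which progesterone drives side branching, stood at 77.8 CPM in E2+P4+PBDE and 56.6 CPM in E2+PBDE, a ratio of 1.37 (1.22 to 1.55). It was at 81.5 CPM in E2+P4, 36.7 CPM in E2 and 53.2 CPM in Vehicle, so the E2+PBDE level lay above that of E2 and the levels of both libraries with P4 lay close together. After thinning, 20.3% (17.5 to 23.4) of the hormone-sensing barcodes of E2+P4+PBDE and 15.5% (13.0 to 18.4) of E2+PBDE had a Wnt4 UMI (42.3% and 46.1% before thinning), against 2.89% and 2.44% of fibroblasts. Tnfsf11, which encodes RANKL, had 1 UMI in each library and could not be compared. Ccnd1, the cyclin that starts the cell cycle, was at 193 CPM in E2+P4+PBDE and 159.9 CPM in E2+PBDE, a ratio of 1.21 (1.12 to 1.30), where E2+P4 over E2 gave 0.702 (0.657 to 0.749). Id2, a transcriptional inhibitor needed for alveolar growth, was at 31.3 CPM in E2+P4+PBDE and 31.6 CPM in E2+PBDE with a ratio of 0.991 (0.827 to 1.18), and at 89.4 in E2+P4 and 45.6 in E2. Zbtb16 was at 4.71 CPM in E2+P4+PBDE and 7.30 CPM in E2+PBDE (31 and 73 UMIs), a ratio of 0.645 (0.410 to 0.995) whose interval ends just under 1. Elf5, the regulator of the alveolar lineage, had a ratio of 1.48 (1.14 to 1.93), and Klf9 one of 0.737 (0.653 to 0.831). Elf5 is also 1 of the 8 L-Alv markers, which summed to 1131 and 914 CPM in these barcodes. The part of alveolar RNA in its level was not tested.

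Sgk1 and Tsc22d3 are direct targets of the progesterone and glucocorticoid receptors in many tissues, and the interval of both ratios included 1. Sgk1, a serum- and steroid-regulated kinase, was at 179 CPM in E2+P4+PBDE and 185 CPM in E2+PBDE, a ratio of 0.970 (0.901 to 1.04). Tsc22d3, which encodes the leucine zipper protein GILZ, was at 17.3 CPM in E2+P4+PBDE and 17.5 CPM in E2+PBDE, a ratio of 0.990 (0.775 to 1.26). Their upstream sequence is printed because Sgk1 was the single gene of the progesterone list whose 250 bases before a RefSeq start held the palindromic progesterone receptor element, and because the 2 genes that stood out among the luminal results, Pcp4 and Lalba, held no core hexamer of that element (TGTTCT, either strand) in the same window. Capitals mark the palindrome in Sgk1, which includes the hexamer on each strand, and the hexamer in Tsc22d3, while a further hexamer in Sgk1, from -242 to -237 relative to the start, stays in lower case. All are RefSeq sequences of GRCm38.p6, 5′ to 3′ in the direction of transcription, from 250 bases before the start to the base before it. Sgk1 has 6 annotated starts and Tsc22d3 has 3, of which 1 each had the palindrome or the hexamer in capitals, and counts at the 3′ end do not say which start was used.
Sgk1, chr10:21993640-21993889, plus strand: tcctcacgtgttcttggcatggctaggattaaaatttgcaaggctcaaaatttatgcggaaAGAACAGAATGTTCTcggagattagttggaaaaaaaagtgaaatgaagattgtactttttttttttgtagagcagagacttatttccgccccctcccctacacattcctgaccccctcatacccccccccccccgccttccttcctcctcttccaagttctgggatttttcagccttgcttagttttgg
Tsc22d3, chrX:140600523-140600772, minus strand: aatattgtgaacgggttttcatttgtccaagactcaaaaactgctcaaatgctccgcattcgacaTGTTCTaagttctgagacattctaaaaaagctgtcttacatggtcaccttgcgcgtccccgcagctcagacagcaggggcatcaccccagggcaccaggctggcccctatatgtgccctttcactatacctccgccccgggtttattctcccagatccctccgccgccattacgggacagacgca
Pcp4, chr16:96467356-96467605, plus strand: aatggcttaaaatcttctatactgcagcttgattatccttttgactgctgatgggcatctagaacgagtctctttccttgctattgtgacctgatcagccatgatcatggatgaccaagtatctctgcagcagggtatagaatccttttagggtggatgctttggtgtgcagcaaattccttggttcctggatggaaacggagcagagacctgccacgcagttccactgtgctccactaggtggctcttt
Lalba, chr15:98482684-98482933, minus strand: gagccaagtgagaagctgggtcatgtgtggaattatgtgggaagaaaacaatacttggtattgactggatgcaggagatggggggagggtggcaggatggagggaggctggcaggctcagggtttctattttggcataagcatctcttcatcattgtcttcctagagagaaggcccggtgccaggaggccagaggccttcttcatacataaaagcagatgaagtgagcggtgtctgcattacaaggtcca
Over all 32851 windows of that length, 16.1% held the hexamer, 3 held the palindromic progesterone receptor element, 21 held the palindromic estrogen receptor element and 7.02% held the STAT element TTCNNNGAA. Counted by gene, 4912 of 27025 genes held the hexamer and 2197 the STAT element in at least 1 window. Of the 20 progesterone response genes, 16 were in the table, 2 had the hexamer and 4 the STAT element. Of the genes named higher and lower in hormone-sensing barcodes (12 each, rule given with the processing), 5 and 10 were in the table. Among these, 1 and 3 had the hexamer, and 0 and 2 the STAT element. None of these named genes held either palindrome.

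The receptors of both steroids differed by less than counting error. Pgr was at 117 CPM in E2+P4+PBDE and 118 CPM in E2+PBDE, a ratio of 0.995 (0.908 to 1.09), and Esr1, the estrogen receptor, at 46.0 CPM in E2+P4+PBDE and 47.4 CPM in E2+PBDE, a ratio of 0.971 (0.838 to 1.12). Of 12 genes for steroid receptors and progesterone metabolism, 8 had 100 UMIs and 0 were past 1.5-fold in either direction, with ratios from 0.926 (Hsd17b4) to 1.22 (Hsd17b11). Over all genes tested in hormone-sensing barcodes, 3.71% were higher and 2.08% lower. Of 14 estrogen response genes, 11 were tested, 1 was higher and 1 lower, and their median log2 ratio was -0.04. The lower gene was Areg, at 1267 CPM in E2+P4+PBDE and 1994 CPM in E2+PBDE, a ratio of 0.635 (0.619 to 0.652). The other libraries had 1385 CPM in E2+P4, 1442 CPM in E2 and 319 CPM in Vehicle, so E2+PBDE had the highest level of the 5, and the other libraries with E2 lay close together below it. The share of barcodes with an Areg UMI after thinning was 70.6% and 75.4%. The higher gene was Cxcl12, a chemokine, at 19.4 CPM in E2+P4+PBDE and 12.6 CPM in E2+PBDE, a ratio of 1.54 (1.20 to 1.99). In the same barcodes, 27 of 29 fibroblast matrix genes were tested, with 4 higher by 1.5-fold and 0 lower. Ratios above 1 were found for 22 of them and below 1 for 5. The 8 fibroblast markers summed to 331 CPM in E2+P4+PBDE and 274 CPM in E2+PBDE there. The part of fibroblast RNA in the level of Cxcl12 was not tested. Foxa1, a cofactor of the estrogen receptor, had a ratio of 1.21 (1.12 to 1.31) and Gata3 one of 1.01 (0.947 to 1.09).

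Of the ligands and receptors of the EGF family, Egfr, the receptor of Areg, was at 12.8 CPM in E2+P4+PBDE and 6.20 CPM in E2+PBDE, a ratio of 2.06 (1.47 to 2.91), from 84 and 62 UMIs. Erbb3, a receptor of neuregulins, was at 44.8 CPM in E2+P4+PBDE and 60.9 CPM in E2+PBDE, a ratio of 0.736 (0.638 to 0.847). Epgn, the ligand epigen, had a ratio of 0.826 (0.607 to 1.12), against 1.79 (1.53 to 2.09) for E2+P4 over E2. Of the 8 of 12 genes tested, 1 was past 1.5-fold higher and 1, Areg, lower. The background for this list and the next was 3.71% higher and 2.08% lower over all genes. Among 17 genes of Wnt, R-spondin and RANK signalling, 6 were tested and 2 were higher, the R-spondin receptors Lgr4, with a ratio of 1.88 (1.28 to 2.79), and Lgr6, with 1.64 (1.09 to 2.48). The median log2 ratio of the 6 was 0.50 beside -0.01 over all genes. Wnt5a, a ligand of the noncanonical pathway, was at 54.5 CPM in E2+P4+PBDE and 37.4 CPM in E2+PBDE, a ratio of 1.46 (1.26 to 1.69). Lgr4 was also higher in fibroblasts, with a ratio of 2.09 (1.58 to 2.75). The part of fibroblast RNA in the hormone-sensing levels of Egfr, Wnt5a and Lgr4 was not tested.

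**Figure D2:**
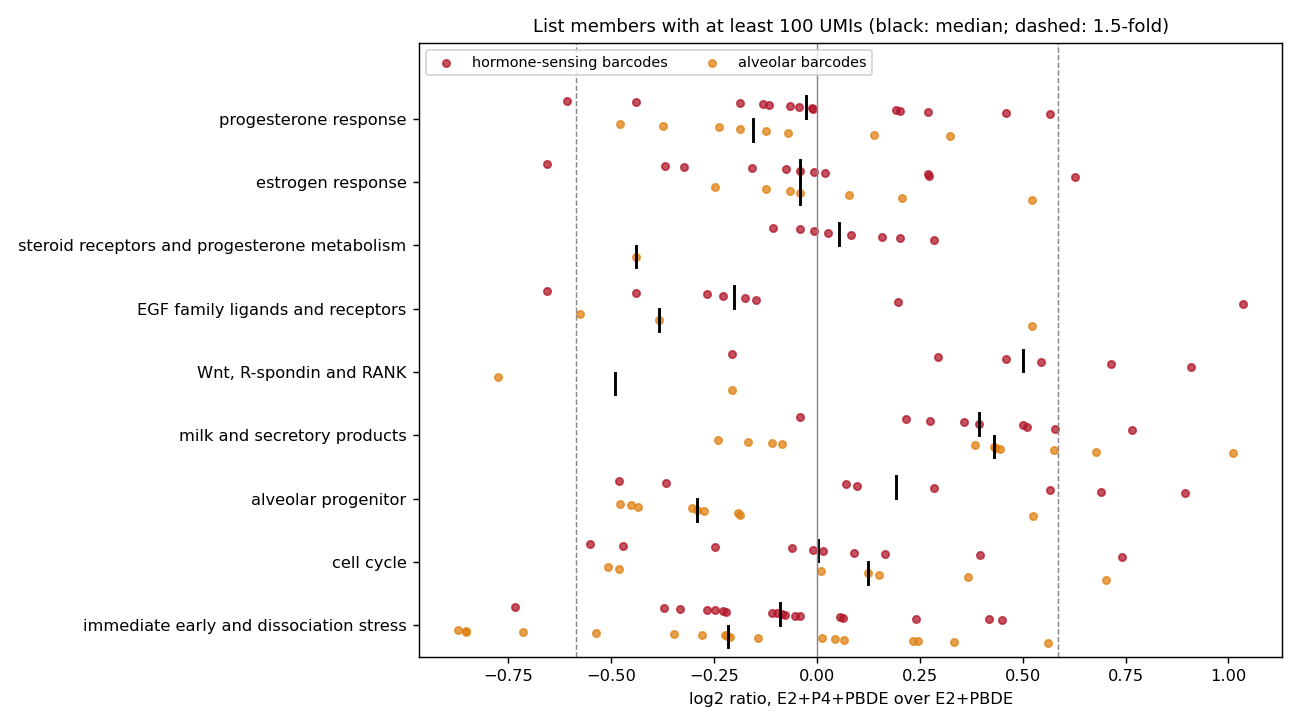
Log2 ratio of E2+P4+PBDE over E2+PBDE (horizontal axis) for each member with at least 100 UMIs of 9 gene lists, in hormone-sensing (dark red) and alveolar (orange) barcodes, with the median as a black stroke and 1.5-fold as dashed lines. The hormone-sensing points of the progesterone list lie between -0.61 (Zbtb16) and 0.57 (Elf5) on the log2 ratio scale, and its median is -0.03.

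The genes that differed most in hormone-sensing barcodes were others. Pcp4 (ENSMUSG00000090223, chr16:96467606-96525793, mm10), which encodes a small protein that binds calmodulin, was at 376 CPM in E2+P4+PBDE and 96.6 CPM in E2+PBDE, a ratio of 3.89 (3.61 to 4.19). It was at 247 CPM in E2+P4, 508 CPM in E2 and 5.64 CPM in Vehicle, so E2+PBDE was the lowest of the 4 libraries with E2. A Pcp4 UMI was found after thinning in 25.1% (22.0 to 28.3) and 6.86% (5.12 to 8.97) of hormone-sensing barcodes (35.4% and 12.6% before thinning) and in 2.32% and 0.706% of fibroblasts. In E2+PBDE, 45.9% of the Pcp4 UMIs came from 5 barcodes. Dmbt1 (ENSMUSG00000047517, chr7:131032053-131121630), a secreted scavenger receptor of mucosal epithelia, was at 91.9 CPM in E2+P4+PBDE and 24.1 CPM in E2+PBDE, a ratio of 3.82 (3.28 to 4.45), and at 54.4 CPM in E2+P4 and 47.8 CPM in E2. Its share of barcodes with a UMI after thinning was 9.63% and 4.62% (1.59% and 0.326% in fibroblasts), and Vehicle had 0 UMIs, which allows up to 2.42 CPM. For Dmbt1, 5 barcodes held 23.1% of the UMIs in E2+P4+PBDE and 38.2% in E2+PBDE. Fxyd2, a regulator of the sodium pump that was chosen after its values were seen, was at 810.4 CPM in E2+P4+PBDE and 384 CPM in E2+PBDE, a ratio of 2.11 (2.03 to 2.20), against 0.936 (0.897 to 0.976) without PBDEs.

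Of the other genes named as higher, 3 are genes of blood cells. Hbb-bs, an adult beta globin, was at 41.2 CPM in E2+P4+PBDE and 6.10 CPM in E2+PBDE, with 55.0% of its E2+P4+PBDE UMIs in 5 barcodes. Lyz2, the lysozyme of macrophages, was at 40.7 CPM in E2+P4+PBDE and 13.3 CPM in E2+PBDE, and Jchain, the chain that joins antibodies of plasma cells, at 22.9 CPM in E2+P4+PBDE and 5.20 CPM in E2+PBDE and at 111 CPM in E2+P4. The 12 immune markers together stood at 257 and 168 CPM in hormone-sensing barcodes, and 2 of the 5 tested were 1.5-fold higher (background 3.71%). The defining genes of T cells (Cd3e) and B cells (Cd79a) were low, at 2.58 and 0.600 CPM and at 0.608 and 0.200 CPM. In an alternative added after seeing the data, barcodes with 5 or more UMIs per 10000 from 16 immune and hemoglobin genes were left out. The log2 ratio of Hbb-bs was then 1.43 and that of Pcp4 2.12. Hbb-bs and Lyz2 are among those 16 genes, so the filter acts on their own values, and barcodes below the limit stayed in. The remaining 7 named genes were Tsix, Gm11175, Gm26917, Gm26619, Fam221b, Gm26669 and Gm4799, with ratios from 3.31 to 5.14, and the first 4 belong to the genes that were higher in hormone-sensing, alveolar and fibroblast barcodes alike.

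The 11 genes described here as lower in hormone-sensing barcodes had at most 84.0 CPM in either library, and for Rpap3 and Sprr2a3 E2+PBDE stood apart from the other 4 libraries. Rpap3 (ENSMUSG00000022466, chr15:97675097-97705825), a cofactor in the assembly of RNA polymerase, was at 7.90 CPM in E2+P4+PBDE and 71.2 CPM in E2+PBDE, a ratio of 0.111 (0.0821 to 0.147), and at 6.77 CPM in E2+P4, 6.63 CPM in E2 and 8.06 CPM in Vehicle. The other 4 libraries thus lay close together for Rpap3 and E2+PBDE far above them, with a UMI after thinning in 17.6% of its hormone-sensing barcodes but in 2.04% of its alveolar barcodes and 2.23% of its fibroblasts. Sprr2a3, a small proline-rich protein, had 2 UMIs in E2+P4+PBDE and 104 in E2+PBDE, all of the latter in 5 barcodes, and between 0 and 6 in the other 3, a ratio of 0.0292 (0.00349 to 0.108). Aoc1, the diamine oxidase, was at 10.5 CPM in E2+P4+PBDE and 30.1 CPM in E2+PBDE, a ratio of 0.348 (0.264 to 0.454), and its level was 2.22 in E2+P4 and 13.3 in E2. Aoc1 was thus lower with P4 in each pair, with 19 UMIs in E2+P4. For Aoc1, 5 barcodes held 56.5% of the UMIs in E2+P4+PBDE and 34.9% in E2+PBDE. Cxcl2, a chemokine for neutrophils, was at 21.1 CPM in E2+P4+PBDE and 46.5 CPM in E2+PBDE, a ratio of 0.454 (0.373 to 0.550). Mvd, an enzyme of sterol synthesis, was at 3.49 CPM in E2+P4+PBDE and 10.0 CPM in E2+PBDE. Cdkn2a, the locus of the cell cycle inhibitors p16 and p19, was at 1.97 CPM in E2+P4+PBDE and 10.1 CPM in E2+PBDE (13 and 101 UMIs) and at 21.9 in E2+P4 and 3.77 in E2. The others were Dscam, Itih2, Psrc1, Il18r1 and 2610305D13Rik, with ratios from 0.260 to 0.483. Dscam, Mvd and 2610305D13Rik were lower with P4 in each pair too, with E2+P4 over E2 at 0.442, 0.536 and 0.602. Without PBDEs Itih2 went the other way, with 1.35. Cxcl2, Psrc1 and Il18r1 lay close to 1, with 1.04, 0.998 and 0.930.

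**Figure D3:**
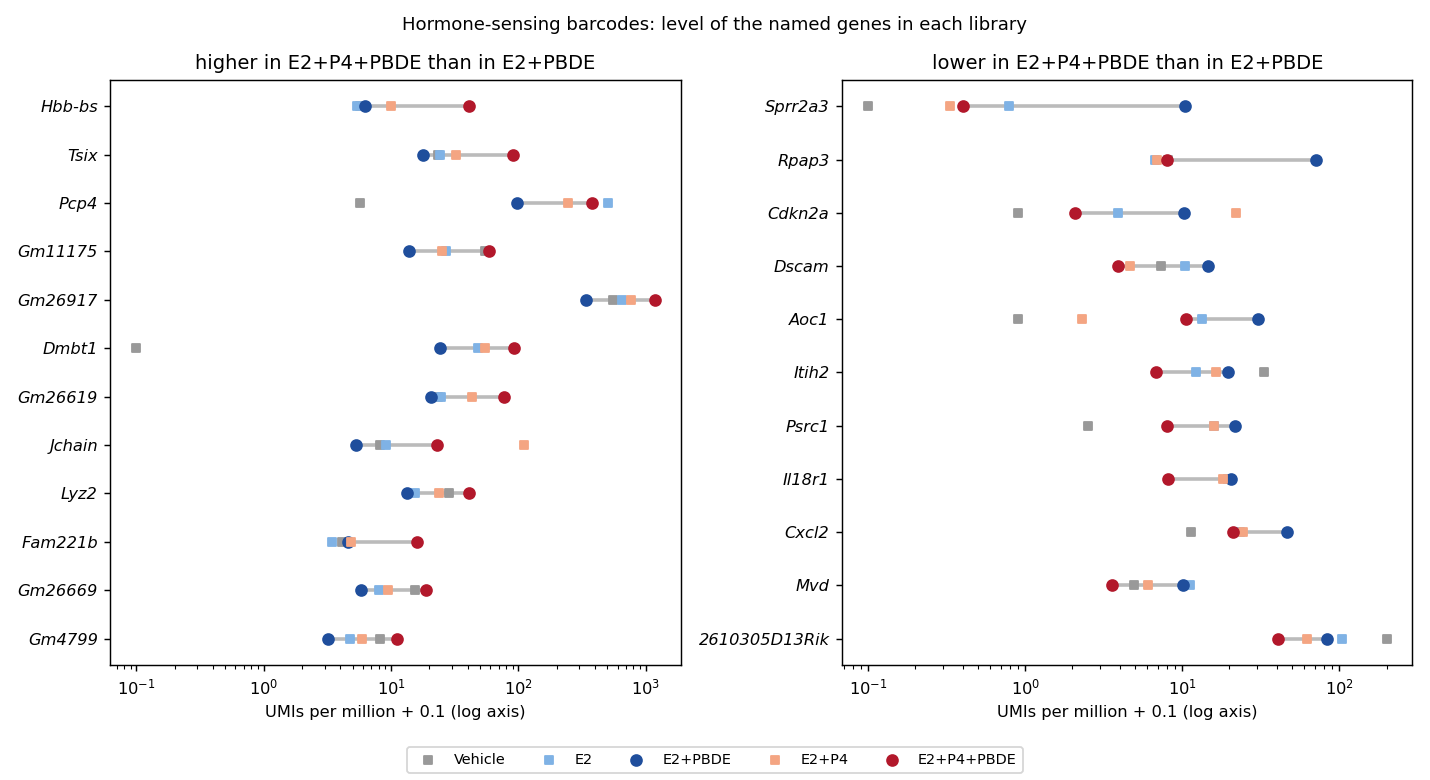
Level of the 12 genes named as higher (left) and 11 named as lower (right) in hormone-sensing barcodes, in CPM plus 0.1 on a log axis, with circles for E2+P4+PBDE (dark red) and E2+PBDE (dark blue) joined by a grey line and squares for the other 3 libraries. For Pcp4 the E2+PBDE circle (96.6) lies left of the other libraries with E2, and for Rpap3 the E2+PBDE circle (71.2) lies far to the right of all others.

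Many of the higher genes were higher in several gates at once. Of the 6908 genes tested in both hormone-sensing barcodes and fibroblasts, 112 were 1.5-fold higher in both, which is 47.7% of those higher in hormone-sensing barcodes and 34.7% of those higher in fibroblasts. For lower genes the overlap was 11, or 10.9% and 6.67%. Over all 6908 genes, 235 were higher and 101 lower in hormone-sensing barcodes, and 323 higher and 165 lower in fibroblasts. Of 3525 genes tested in hormone-sensing, alveolar and fibroblast barcodes alike, 39 were higher in all 3 and 4 lower in all 3, the chemokine Ccl2 and the mitochondrial genes mt-Nd2, mt-Co2 and mt-Nd3. Singly, 107, 153 and 147 of the 3525 were higher in hormone-sensing, alveolar and fibroblast barcodes, and 30, 92 and 38 lower. Of the 39, 13 are annotated as pseudogenes. By class, 22 of 34 pseudogenes (64.7%) and 257 of 8043 protein-coding genes (3.20%) were higher in hormone-sensing barcodes, and 24 of 31 and 342 of 8046 in fibroblasts, while no pseudogene was lower in either. Reads of such copies can be assigned to their parent genes or to each other, so their counts are uncertain. In the libraries without PBDEs, 5 of 32 pseudogenes were higher with P4 in hormone-sensing barcodes and 10 of 28 in fibroblasts. Of protein-coding genes, 177 of 7932 and 127 of 6687 were higher there, so the share of pseudogenes was the larger in that pair too.

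The genes leading this set were annotated as noncoding. Gm26917 (ENSMUSG00000097971, chr17:39843013-39846341), annotated as a long noncoding RNA, had ratios of 3.46 (3.32 to 3.60) in hormone-sensing, 3.57 (3.30 to 3.86) in alveolar, 3.64 (3.14 to 4.23) in basal and 3.51 (3.37 to 3.67) in fibroblast barcodes. Which RNA its reads came from was not tested. Its neighbours Gm42418 and AY036118, which the annotation places on opposite strands of overlapping intervals, had ratios of 2.03 (1.95 to 2.12) and 2.27 (2.15 to 2.39) in hormone-sensing barcodes. Tsix (chrX:103431517-103484957), the antisense transcript of Xist, was at 90.4 CPM in E2+P4+PBDE and 17.6 CPM in E2+PBDE in hormone-sensing barcodes and at 90.3 CPM in E2+P4+PBDE and 19.6 CPM in E2+PBDE in fibroblasts. Xist itself had ratios of 1.30 (1.27 to 1.33) and 1.31 (1.27 to 1.36). Gm11175, annotated antisense to Jund, had a ratio of 4.32 (3.54 to 5.28) in hormone-sensing barcodes and 6.08 (4.94 to 7.49) in fibroblasts, and Jund had 1.37 (1.33 to 1.40) and 1.94 (1.88 to 1.99). The sources used here do not state how strand was counted, so reads of such overlapping partners may not be told apart. Without PBDEs, E2+P4 over E2 in hormone-sensing barcodes gave 1.83 for AY036118, 1.78 for Gm26619 and 1.65 for Gm42418. It gave 1.34 for Tsix, 1.19 for Gm26917 and 0.937 for Gm11175. For each of these genes, E2+PBDE had the lowest hormone-sensing level of the 5 libraries, with 340 CPM for Gm26917 and 13.7 CPM for Gm11175.

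**Figure D4:**
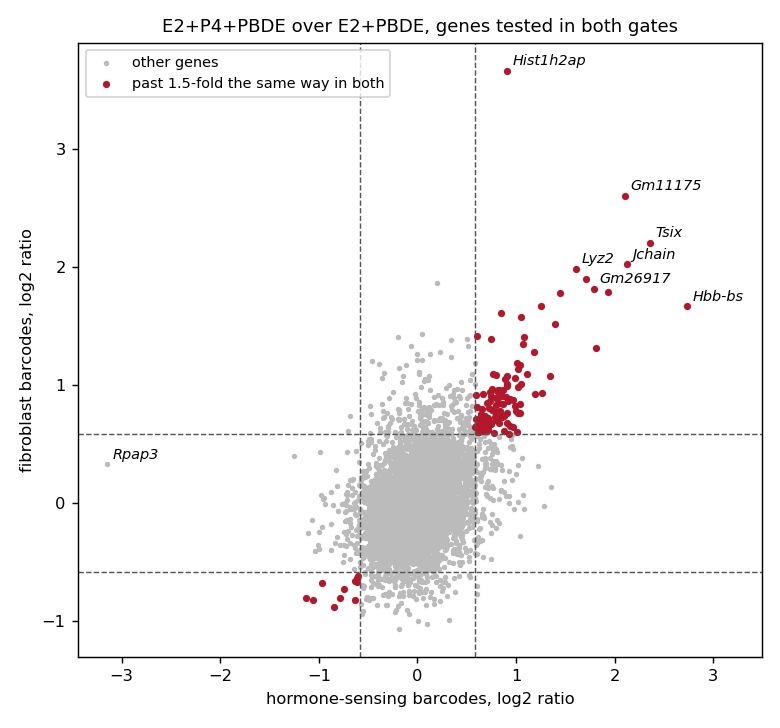
Log2 ratio of E2+P4+PBDE over E2+PBDE in hormone-sensing (horizontal axis) and fibroblast (vertical axis) barcodes, 1 point per gene with at least 100 UMIs in both gates, and 1.5-fold as dashed lines. The 112 genes higher in both and the 11 lower in both are red, and Rpap3, at -3.15 in hormone-sensing barcodes, lies alone at the left.

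In alveolar barcodes, the milk genes Lalba and Cel were higher and the growth factor gene Csf3 and the stress gene Atf3 lower in E2+P4+PBDE. Of 3764 genes tested, 167 (4.44%) were 1.5-fold higher and 109 (2.90%) lower, from 116 and 196 barcodes. Lalba (ENSMUSG00000022991, chr15:98480400-98482721), the milk protein alpha-lactalbumin that makes lactose synthesis possible, was at 254 CPM in E2+P4+PBDE and 126 CPM in E2+PBDE, a ratio of 2.01 (1.73 to 2.35). It was at 199 CPM in E2+P4, 65.0 CPM in E2 and 244 CPM in Vehicle, so each library with P4 stood above its partner, and E2+PBDE above E2. Of its UMIs, 43.9% and 34.0% came from 5 barcodes. A UMI was found after thinning in 27.6% (19.7 to 36.7) and 17.3% (12.3 to 23.4) of alveolar barcodes (41.4% and 34.7% before), intervals that overlap, and in 0.145% and 0.217% of fibroblasts. Of 20 milk and secretory genes, 11 were tested and 2 were higher, Lalba and Cel, a lipase of milk with a ratio of 1.59 (1.21 to 2.09). Without PBDEs, 4 of 11 were higher with P4 (background 3.59%). With PBDEs the median log2 ratio of the list was 0.43 beside 0.03 over all genes. Plin2, which coats lipid droplets, had a ratio of 1.49 (1.29 to 1.71), Btn1a1, the butyrophilin of the milk fat globule, 1.35 (1.04 to 1.76) and Ltf, the iron-binding lactoferrin, 1.30 (1.15 to 1.48). The 4 most abundant members lay below 1. Lcn2, the iron carrier lipocalin, had a ratio of 0.942 (0.905 to 0.981) and Wfdc18 0.847 (0.802 to 0.894). Trf had 0.891 (0.855 to 0.929) and Mfge8 0.926 (0.874 to 0.981). The list thus went both ways, with 7 tested ratios above 1 and 4 below, and its summed level had a ratio of 0.949. The caseins on the list were scarce, with at most 21 UMIs a library (Csn1s2a in E2+PBDE), and Csn2 had 0 in both, which allows up to 2.63 and 0.923 CPM.

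Of 12 genes of alveolar progenitors, 9 were tested and 0 were past 1.5-fold in either direction, with a median log2 ratio of -0.29. Over all genes tested in alveolar barcodes, 4.44% were higher and 2.90% lower. Kit, the receptor of luminal progenitors, was at 29.0 CPM in E2+P4+PBDE and 41.2 CPM in E2+PBDE, a ratio of 0.702 (0.464 to 1.03), where E2+P4 over E2 gave 1.34 (1.07 to 1.69). Elf5 had a ratio of 0.873 (0.703 to 1.08). Of the progesterone response genes, 8 were tested and 0 were past 1.5-fold either way. Ccnd1 was at 177 CPM in E2+P4+PBDE and 194 CPM in E2+PBDE, a ratio of 0.915 (0.777 to 1.07), and at 139 in E2+P4 and 326 in E2.

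The genes of the cell cycle stood differently in the pairs of libraries with and without PBDEs in alveolar barcodes. Of 7 tested with PBDEs, 1 was higher (Ube2c, from 43 and 76 UMIs) and 0 were lower, with a median log2 ratio of 0.13 (background 4.44% higher and 2.90% lower). Of 16 tested without PBDEs, 14 were lower in E2+P4 than in E2, with a median of -0.94 (background 8.44%). With PBDEs 13 of the 20 genes fell below the minimum of UMIs, so these medians cover unlike sets of genes. H2afz, a histone variant of dividing cells, was at 675 CPM in E2+P4+PBDE and 608 CPM in E2+PBDE and at 675 in E2+P4 and 1254 in E2. Stmn1, a regulator of microtubules, was at 154 CPM in E2+P4+PBDE and 153 CPM in E2+PBDE and at 167 in E2+P4 and 317 in E2. For these 2 genes E2 stood above the other 3 libraries with E2, which lay close together, and whether the pairs differ was not tested.

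Among the 10 genes named as lower in alveolar barcodes were Csf3, Cxcl1, Ccl2, Ccl7, Atf3 and Maff. Csf3, the granulocyte growth factor, was at 29.0 CPM in E2+P4+PBDE and 81.9 CPM in E2+PBDE, a ratio of 0.354 (0.238 to 0.509), with 78.8% of its E2+P4+PBDE UMIs in 5 barcodes. Cxcl1, a chemokine for neutrophils, was at 258 CPM in E2+P4+PBDE and 486 CPM in E2+PBDE, a ratio of 0.530 (0.467 to 0.601). Ccl2, which attracts monocytes, was at 24.6 CPM in E2+P4+PBDE and 63.7 CPM in E2+PBDE, and Ccl7 at 28.1 CPM in E2+P4+PBDE and 61.6 CPM in E2+PBDE. These chemokines stood higher in the fibroblasts of E2+P4+PBDE and E2+PBDE, Ccl2 at 1417 and 2616 CPM. Ccl7 was there at 1412 and 1851 CPM and Cxcl1 at 863 and 1394 CPM. The part of fibroblast RNA in their alveolar levels was not tested. Atf3, a transcription factor induced by stress, was at 229 CPM in E2+P4+PBDE and 414 CPM in E2+PBDE, a ratio of 0.553 (0.482 to 0.631), and Maff at 166 CPM in E2+P4+PBDE and 296 CPM in E2+PBDE. Of 18 immediate early and stress genes, all tested, 4 were lower (Fosb, Atf3, Hspa1a and Hspa1b) and 0 higher, with a median log2 ratio of -0.21. The background over all genes was 2.90% lower and 4.44% higher. Such genes also respond to dissociation of the tissue, whose part was not tested. With luminal gates on Prlr and Spp1 alone, Ccl2, Ccl7 and Cxcl1 turned to log2 ratios of 1.67, 0.33 and 0.01, so their direction depended on the gate. The other genes named as lower, Cryab, Ifi202b, Trip6 and Wisp2, had ratios from 0.322 to 0.510. Of the genes named as higher, Igfbp7, a secreted binding protein, was at 154 CPM in E2+P4+PBDE and 76.6 CPM in E2+PBDE, and the 8 apart from Lalba and Igfbp7 (Gm11175, Gm26917, Tsix, Gm26619, AY036118, Gm42418, Gm10020 and Gm9843) were higher in hormone-sensing and fibroblast barcodes too. Fibroblast markers summed to 369 and 247 CPM in alveolar barcodes, and 2 of the 5 tested of 8 were higher; their part in the level of Igfbp7 was not tested.

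In basal barcodes the contractile genes differed little. Of 13 smooth muscle genes, 10 were tested and 0 were past 1.5-fold in either direction, with a median log2 ratio of -0.05 beside -0.06 over all 1327 genes. Without PBDEs, 1 of 12 were higher and 0 lower with P4 (background 3.13% and 6.25%). Acta2, smooth muscle actin, was at 5049 CPM in E2+P4+PBDE and 5874 CPM in E2+PBDE, a ratio of 0.859 (0.817 to 0.904), and Oxtr, the oxytocin receptor that triggers milk ejection, at 112 CPM in E2+P4+PBDE and 125 CPM in E2+PBDE, a ratio of 0.894 (0.621 to 1.27). Over all genes 67 (5.05%) were higher and 97 (7.31%) lower, from 40 and 63 barcodes. Mt1, a metallothionein that binds metals, was at 15632 CPM in E2+P4+PBDE and 8297 CPM in E2+PBDE, a ratio of 1.88 (1.82 to 1.95), and Thbs1, the matrix protein thrombospondin, at 807 CPM in E2+P4+PBDE and 387 CPM in E2+PBDE, a ratio of 2.09 (1.79 to 2.44). Marcks, a substrate of protein kinase C, had a ratio of 2.14 (1.65 to 2.78), and the other 3 named as higher were Gm26917, AY036118 and Gm9493. Id2 was at 25.7 CPM in E2+P4+PBDE and 112 CPM in E2+PBDE (11 and 92 UMIs), a ratio of 0.229 (0.111 to 0.430), where E2+P4 over E2 gave 1.27 (0.964 to 1.69). In E2+P4+PBDE, 5 barcodes held 39.6% of the UMIs of Mt1, 50% of Thbs1, 40.9% of Marcks and 81.8% of Id2. The intervals of these ratios do not cover such spread between barcodes. Hspa1a, a heat shock protein, was at 152 CPM in E2+P4+PBDE and 366 CPM in E2+PBDE.

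The summed markers of both luminal lineages were lower in the basal barcodes of E2+P4+PBDE. Areg was at 65.3 CPM in E2+P4+PBDE and 182 CPM in E2+PBDE there and Gpx3, a secreted peroxidase, at 629.9 CPM in E2+P4+PBDE and 1498 CPM in E2+PBDE, and the E2+PBDE UMIs of both came mostly from few barcodes, 86% and 80.3% from 5. Hp, haptoglobin, was at 67.7 CPM in E2+P4+PBDE and 185 CPM in E2+PBDE and the noncoding AW112010 at 88.7 CPM in E2+P4+PBDE and 265 CPM in E2+PBDE, with 86.2% and 83.5% of the E2+PBDE UMIs in 5 barcodes. The L-Hor markers summed to 730.2 and 1284 CPM and the L-Alv markers to 723 and 1182 CPM, with Esr1 at 0 and 9 UMIs; the part of luminal RNA in these results was not tested. With gates on thinned barcodes the log2 ratios of Areg and AW112010 were 0.10 and 0.14, so neither direction held. Gpx3 does not mark luminal RNA alone. It stood at 4233 CPM in E2+P4+PBDE and 4682 CPM in E2+PBDE in fibroblasts, beside 4335 and 7128 in hormone-sensing barcodes.

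In fibroblasts, the chemokines Ccl2 and Cxcl1 were lower in E2+P4+PBDE, and matrix genes were mostly lower by less than 1.5-fold. Of 8193 genes tested, 390 (4.76%) were higher and 252 (3.08%) lower. Of 29 matrix genes, all tested, 0 were 1.5-fold higher and 1, Tnc, was 1.5-fold lower with an interval that included 1, at a ratio of 0.618 (0.342 to 1.05). Ratios below 1 were found for 23 of the 29, with a median log2 ratio of -0.21 beside -0.0024 over all genes. Without PBDEs, 7 of 29 were higher and 0 lower with P4, and 6 had ratios below 1, with a median of 0.21 (background 2.19% higher and 4.13% lower). Postn, the matrix protein periostin, was at 843 CPM in E2+P4+PBDE and 1229.7 CPM in E2+PBDE, a ratio of 0.686 (0.658 to 0.714), and at 2308 in E2+P4 and 1343 in E2. Eln, which encodes elastin, had ratios of 0.782 (0.712 to 0.859) with PBDEs and 1.94 (1.79 to 2.10) without, and Col15a1 of 0.859 (0.764 to 0.964) and 2.06 (1.88 to 2.27). Lum, which encodes the proteoglycan lumican, went the other way, with 1.21 (1.17 to 1.25) and 0.963 (0.933 to 0.993). Whether the pairs of libraries differ was not tested.

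**Figure D5:**
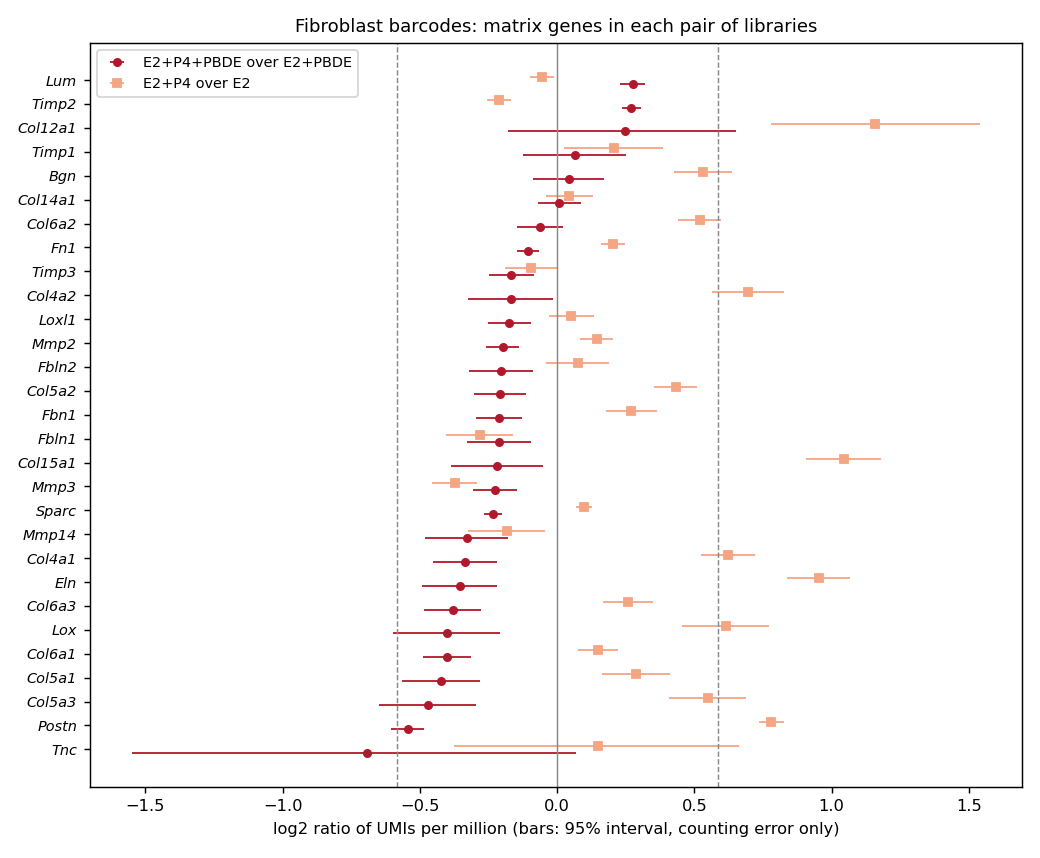
Log2 ratio with its 95% interval for counting error (horizontal axis) of each of the 29 matrix genes in fibroblast barcodes, for E2+P4+PBDE over E2+PBDE (dark red circles) and E2+P4 over E2 (orange squares), with 1.5-fold as dashed lines. The circles lie mostly left of 0, around a median of -0.21, and the squares mostly right of it, around 0.21.

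Of 30 paracrine factors of fibroblasts, 25 were tested, 0 were higher and 3 lower (background 4.76% higher and 3.08% lower). Ccl2 (ENSMUSG00000035385, chr11:82035571-82037453) was at 1417 CPM in E2+P4+PBDE and 2616 CPM in E2+PBDE, a ratio of 0.542 (0.525 to 0.559), and at 1592 CPM in E2+P4, 1607 CPM in E2 and 1669 CPM in Vehicle. A Ccl2 UMI was found after thinning in 39.7% and 53.3% of fibroblasts, and E2+PBDE had the highest level of the 5 libraries. Cxcl1 was at 863 CPM in E2+P4+PBDE and 1394 CPM in E2+PBDE, a ratio of 0.619 (0.594 to 0.644), and at 696 CPM in E2+P4, 639 CPM in E2 and 1241 CPM in Vehicle. Igfbp4, a binding protein that restrains insulin-like growth factors, was at 525 CPM in E2+P4+PBDE and 958 CPM in E2+PBDE, a ratio of 0.548 (0.520 to 0.577), and E2+P4+PBDE had the lowest level, the others lying between 762 and 958 CPM. Igf1 had a ratio of 1.11 (1.01 to 1.23) and Fgf7, a growth factor for epithelium, 0.881 (0.728 to 1.06). Nfkb1, a subunit of the inflammatory factor NF-κB, was at 162 CPM in E2+P4+PBDE and 281 CPM in E2+PBDE and Pim3, a kinase, at 73.4 CPM in E2+P4+PBDE and 139 CPM in E2+PBDE. Klf9 was at 337 CPM in E2+P4+PBDE and 517 CPM in E2+PBDE, a ratio of 0.652 (0.611 to 0.696), and Ccnd1 at 19.4 CPM in E2+P4+PBDE and 11.6 CPM in E2+PBDE, a ratio of 1.68 (1.23 to 2.26); these were the 2 of 15 tested genes of the progesterone list past 1.5-fold. The other genes named as lower were Qsox2, Mmp11, Stx11, Maff and Eef1a1, with ratios from 0.250 to 0.661.

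The genes higher in fibroblasts came partly from few barcodes. Retnla, a secreted protein of alternatively activated macrophages and of some stromal cells, was at 36.5 CPM in E2+P4+PBDE and 1.89 CPM in E2+PBDE, a ratio of 19.3 (12.5 to 30.8), with 75.7% of its UMIs in 5 barcodes of E2+P4+PBDE. Hist1h2ap, a histone gene, was at 34.6 CPM in E2+P4+PBDE and 2.69 CPM in E2+PBDE, with 95.4% in 5 barcodes. Lyz2 was at 106 CPM in E2+P4+PBDE and 26.8 CPM in E2+PBDE and Jchain at 25.4 CPM in E2+P4+PBDE and 6.26 CPM in E2+PBDE. The 12 immune markers summed to 399 CPM in the fibroblasts of E2+P4+PBDE and 175 in those of E2+PBDE. The 7 tested were all 1.5-fold higher (background 4.76%). Cd79a was at 0 (up to 0.953 CPM allowed) and 12 UMIs and Cd3e at 13 and 38. Barcodes that reached the limit of immune and hemoglobin genes given above (79 and 38 fibroblasts) were then left out. The log2 ratio of Retnla was 2.32 instead of 4.23 and that of Hist1h2ap 3.91 instead of 3.66. That of Lyz2, itself 1 of the genes filtered on, was 1.06 instead of 1.98. Fibroblasts below the limit stayed in. Tmem56 and Cdk2ap1, with 8.55% and 10.5% of their E2+P4+PBDE UMIs in 5 barcodes, were at 37.2 CPM in E2+P4+PBDE and 10.3 CPM in E2+PBDE and at 33.4 CPM in E2+P4+PBDE and 9.75 CPM in E2+PBDE, and the remaining 4 were Tsix, Gm11175, Gm26917 and Gm26619. Tmem56 stood far higher in the hormone-sensing barcodes of E2+P4+PBDE and E2+PBDE, at 432 and 375 CPM. The part of their RNA in its fibroblast level was not tested. Cdk2ap1 was higher in the other gates too, at 48.8 and 17.9 CPM in hormone-sensing, 30.7 and 14.2 in alveolar and 51.3 and 26.8 in basal barcodes. Pgr was at 17.8 CPM in E2+P4+PBDE and 7.49 CPM in E2+PBDE in fibroblasts (56 and 103 UMIs), a ratio of 2.37 (1.68 to 3.32), and Acta2 at 33.1 CPM in E2+P4+PBDE and 12.3 CPM in E2+PBDE, a ratio of 2.69 (2.08 to 3.45) beside 0.488 (0.398 to 0.594) without PBDEs. Markers of the epithelial lineages stood higher in the same barcodes, with the 8 L-Hor markers, Pgr among them, at 332 and 226 CPM (2 of 5 tested past 1.5-fold, Pgr and Krt8) and the 8 basal markers, Acta2 among them, at 109 and 75.5 CPM (1 of 3 past it, Acta2). Their part in the values of Pgr and Acta2 was not tested.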

How the data were processed

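Single-cell suspensions were captured with a droplet system that marks the 3′ end of each transcript with a UMI. The deposited UMI counts are unnormalized matrices of genes by barcodes, 1 per library, made by the authors with Cell Ranger 2.0.0 on mm10, per the submitters' processing notes; the processed files hold 27998 genes. Barcodes with at least 500 genes, 1000 UMIs and at most 10% mitochondrial UMIs were kept, the thresholds the study's methods state. No doublets were removed. UMIs were summed per gate and library and divided by the UMIs of all genes in those barcodes (CPM). Ratios carry exact conditional binomial 95% intervals, shares Clopper-Pearson intervals, and differences of shares Newcombe intervals. A gene was tested with 100 or more UMIs over both libraries and counted as past the fold at a ratio of 1.5 or its inverse, with 1 UMI added to each sum. Limits for 0 counts are 3 counts. Thinning drew 3000 UMIs per barcode without replacement, and no barcode that was kept had fewer.

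Named genes were the 12 highest and lowest in hormone-sensing, 10 in alveolar and fibroblast and 6 in basal barcodes by the interval limit nearest to 1, without the 12 gate genes, mitochondrial genes and ribosomal protein genes; members of the gene lists that the text describes were added. A gene named as lower in hormone-sensing barcodes is not reported here. The members and the lists were chosen with earlier results of these data known. Coordinates and gene classes are those of GENCODE M21 (mm10), and upstream sequences those of RefSeq. Alternatives were other gates, other barcodes, other scalings and other limits on UMIs and fold. Python 3.11.15 with numpy 2.4.6, scipy 1.17.1, pandas 2.3.3 and scanpy 1.11.5 was used, and the scripts were tested on simulated data.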

Additional observations from a re-analysis of the deposited data

Results flagged for a closer look

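These values had opposite signs with and without PBDEs. Each rests on 1 library per group, and none of these differences between the pairs was tested. The share of hormone-sensing barcodes differed by 11.9 percentage points between E2+P4+PBDE and E2+PBDE and by -2.11 between E2+P4 and E2. The alveolar share differed by -0.639 and by 12.1 points, and the basal share by -0.0904 and by 1.36 points. With PBDEs both of these intervals include 0. Other settings turned the sign, to 0.523 points for alveolar and at most 0.285 for basal barcodes. No direction with PBDEs is therefore shown for these shares of all barcodes. Among the barcodes of the epithelial gates alone, the alveolar difference with PBDEs was -7.51 points (-10.8 to -4.17). The basal difference there was -2.12 points (-4.20 to -0.0492). Both of these intervals lie below 0, the basal one narrowly, and they cover counting error only.

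Pcp4 in hormone-sensing barcodes had a log2 ratio of 1.96 for E2+P4+PBDE over E2+PBDE and -1.04 for E2+P4 over E2, with E2 at 508 CPM and E2+PBDE at 96.6 CPM. Cdkn2a there had log2 ratios of -2.26 and 2.50. In alveolar barcodes Ccl2 had -1.33 and 1.26 and Ccl7 -1.10 and 1.36, and the sign of both with PBDEs depended on the gate. In basal barcodes Areg had -1.44 and 1.49 and Hspa1a -1.25 and 1.08, from few barcodes. In fibroblasts Gm11175, antisense to Jund, had 2.60 and -0.71.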

How the results depend on the processing

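Each group was 1 library, so no setting could address the variation between animals, and no library could be left out. No paired analysis was possible because each group had 1 library and the labels give no replicate numbers. Of 39 differences of shares recomputed over 10 settings, 32 were close to the value as reported, and every hormone-sensing and fibroblast value kept its direction. The basal and alveolar differences, whose intervals as reported include 0, did not. The basal was 0.285 points with a mitochondrial maximum of 5%, 0.0369 with gates on thinned barcodes and 0.0946 with thresholds multiplied by 1.5. The alveolar was 0.523 points with luminal gates on Cited1 and Csn3 alone. The hormone-sensing difference was 7.41 points with luminal gates on Cited1 and Csn3 alone, 14.4 with gates on Prlr and Spp1 alone, and 9.44 with only the 3 epithelial gates in the denominator, where the alveolar difference was -7.51 and the basal -2.12 points. The fibroblast difference was -19.9 points with gate thresholds multiplied by 1.5 and -18.4 with the 20% of barcodes of highest Scrublet score left out. Why these values moved was not tested.

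Of the counts past 1.5-fold, 90 of 120 recomputed values lay within 1.5 times the count as reported. Lower genes in basal barcodes numbered 62 with thresholds multiplied by 1.5 and 49 with barcodes above 2 times the median UMIs left out. Lower genes in alveolar barcodes numbered 165 when each barcode was weighted equally. With no minimum of UMIs, where genes of few UMIs enter, 3793 genes were higher and 1237 lower in hormone-sensing, 3724 and 1211 in alveolar, 3106 and 2493 in basal and 4894 and 862 in fibroblast barcodes. With a minimum of 300 UMIs, where fewer genes enter, these were 117 and 54, 36 and 24, 21 and 23, and 123 and 78. At 2-fold they were 51 and 19, 15 and 11, 10 and 10, and 78 and 8. In an alternative added after seeing the data, genes past the fold the same way in fibroblasts too were left out. Then 192 genes remained higher in hormone-sensing, 107 in alveolar and 44 in basal barcodes. Genes shared among these gates but not with fibroblasts stayed in. Setting the median log2 ratio to 0 shifted values by at most 0.06.

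Of 836 log2 ratios of named genes recomputed over 11 settings, 748 were close to the value as reported, 82 moved and 6 changed sign. In basal barcodes AW112010 was at 0.14 with gates on barcodes thinned to 3000 UMIs and at 0.02 with thresholds multiplied by 1.5, and Areg at 0.10 with thinned gates. In alveolar barcodes gated on Prlr and Spp1 alone, Ccl2 was at 1.67, Ccl7 at 0.33 and Cxcl1 at 0.01. The cause was not tested.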

Other observations

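Hormone-sensing barcodes also held some transcripts of the alveolar lineage and of stress, which the comparisons did not use. Over all 8203 genes tested there, 3.71% were 1.5-fold higher and 2.08% lower, with a median log2 ratio of -0.01. These shares are the background for the counts below. Of the milk genes, 9 were tested there and 1 was 1.5-fold higher, Lcn2, at 383 CPM in E2+P4+PBDE and 226 CPM in E2+PBDE, with a median log2 ratio of 0.39. Of the alveolar progenitor genes, 8 were tested and 2 were higher, Kit at 15.6 CPM in E2+P4+PBDE and 8.40 CPM in E2+PBDE and Sox10 with a ratio of 1.62 (1.26 to 2.07), while in alveolar barcodes the ratio of Kit was 0.702. The L-Alv markers together stood at 1131 and 914 CPM in hormone-sensing barcodes, and their part in these values was not tested.

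Of 18 immediate early and stress genes in hormone-sensing barcodes, 1, Jun, was 1.5-fold lower, at 592 CPM in E2+P4+PBDE and 984 CPM in E2+PBDE, a ratio of 0.602 (0.580 to 0.624), with a median log2 ratio of -0.09 over the 18 tested. Ccl2 stood lower in hormone-sensing barcodes too, at 48.9 CPM in E2+P4+PBDE and 88.1 CPM in E2+PBDE, and so did Il6, at 4.41 CPM in E2+P4+PBDE and 9.10 CPM in E2+PBDE. In fibroblasts Ccl2 was at 1417 CPM in E2+P4+PBDE and 2616 CPM in E2+PBDE. The part of fibroblast RNA in its hormone-sensing level was not tested. Of the cell cycle genes, 10 were tested there and 1, Stmn1, was higher, at 40.0 CPM in E2+P4+PBDE and 23.9 CPM in E2+PBDE, while Mki67, a marker of dividing cells, had 14 and 27 UMIs.

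Among ribosomal protein genes, 82 were tested in hormone-sensing barcodes, 1 was higher and 0 lower, with a median log2 ratio of -0.02. Over all genes there, 3.71% were higher and 2.08% lower.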
